A study of Mus musculus with 25 samples.

Results

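The Pax genes encode transcription factors that bind DNA through a paired domain and direct the early patterning of many tissues. The 9 mouse members, Pax1 to Pax9, were looked up by symbol in 12 lists of regions enriched for H3K27me3, trimethylation of lysine 27 on histone H3, from regenerating mouse myofibers. Of the 9 genes, 8 had at least 1 region assigned to them by the authors. These 8 genes held 427 of the 34244 H3K27me3 peaks in the 12 lists. Pax8 had no assigned peak. In 12 companion lists for H3K9me3, trimethylation of lysine 9 on the same histone, none of the 9 genes had an assigned peak, and none had a peak over the gene or within 5000 bp of it, where 9.38% of protein-coding genes had one in at least 1 list and 2.65% in at least 3.

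H3K27me3 is laid down by Polycomb repressive complex 2 and covers promoters of developmental regulators in cells where these genes are silent. H3K9me3 is instead typical of repeats and constitutive heterochromatin. Pax genes are classic Polycomb targets in tissues that do not use them. In skeletal muscle, Pax7 marks the quiescent muscle stem cell and Pax3 specifies muscle precursors in the embryo, and both are shut down as the cells differentiate into myofibers. The other members act elsewhere: Pax1 and Pax9 in the sclerotome and pharyngeal pouches, Pax2 and Pax8 in kidney and thyroid, Pax5 in B cells, Pax6 in eye, brain and pancreas, and Pax4 in pancreatic endocrine cells.

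All mice carried a tamoxifen-inducible Cre driven by Pax7, which recombines in muscle stem cells, together with the mitochondrial reporter mito-Dendra2, wild-type mice included. The 4 genotypes were wild-type, mfn2-/- (lacking mitofusin 2, which joins mitochondrial outer membranes), vhl-/- (lacking VHL, the ubiquitin ligase subunit that marks HIF1α for destruction) and HIF1dPA (expressing a HIF1α that escapes VHL because its prolines are replaced by alanine), with 3 libraries each per mark. Tamoxifen was given at 75 mg/kg once daily for 5 days. The tibialis anterior muscle was injured 2 days later with 50 µL of 1.2% BaCl2, and fibers bearing Dendra2 were dissected after 14 days of regeneration. The libraries address whether the mark differs between wild-type fibers and 3 genotypes in which HIF1α is raised. The labels do not say which libraries came from separate mice, so the p-values measure the spread between these libraries, which may be partly technical. In bulk chromatin, a mark present in fewer nuclei cannot be told apart from a weaker mark in all of them.

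The lists differed in length. Wild-type lists held 3433 to 3776 H3K27me3 peaks, mfn2-/- lists 3358 to 3679, vhl-/- lists 3636 to 4035 and HIF1dPA lists 482 to 501. The HIF1dPA lists therefore stand apart, and every value for that genotype below has this shorter list behind it. The mfn2-/- lists stand apart in another way, since 30.0 to 30.3% of their peaks lay on the X chromosome against 0.146 to 0.344% in wild-type lists, which left 2342 to 2574 autosomal peaks in each. All 9 Pax genes are autosomal. The part of list length and of the X-linked peaks in the Pax values was not tested apart from the alternatives given below. Peak lists hold no read counts, so the depth of each library is unknown and a gene without a peak is only not listed. Of 10 myofiber genes, 0 had an H3K27me3 peak in any list. At least 1 list had one for 4 of 10 muscle stem cell genes, Pax7 among them, and for 2 of 5 endothelial genes. The same held for 2 of 5 immune, 1 of 5 fibro-adipogenic and 2 of 5 Schwann cell genes. Of all protein-coding genes, 19.7% had a peak in at least 1 list and 8.41% in at least 3. In at least 3 lists, 2 muscle stem cell genes and 1 fibro-adipogenic gene had one, and 0 endothelial, immune or Schwann cell genes. Such a list does not measure expression, so the labelled cell type could not be checked from it.

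Each peak has a score of 10 times the negative log10 of the caller's p-value, and scores under 50 were not listed. The score is ranked within each list, and its percentile is the share of that list's peaks that it exceeds. For each gene and list, the covered length is the number of bases under the peaks assigned to that gene, and is 0 where no peak was listed. Positions are on mm10. Among 21887 protein-coding genes of the RefSeq annotation, 19.7% had an assigned H3K27me3 peak in at least 1 list, 8.41% in at least 3 and 1.5% in at least 9. Of the 9 Pax genes, 8 had a peak in at least 1 list, 8 in at least 3 and 6 in at least 9. Pax6 had a peak in all 12 lists, Pax2 and Pax9 in 11, Pax1 and Pax3 in 10, Pax5 in 9, Pax7 in 5 and Pax4 in 3.

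**Figure D1:**
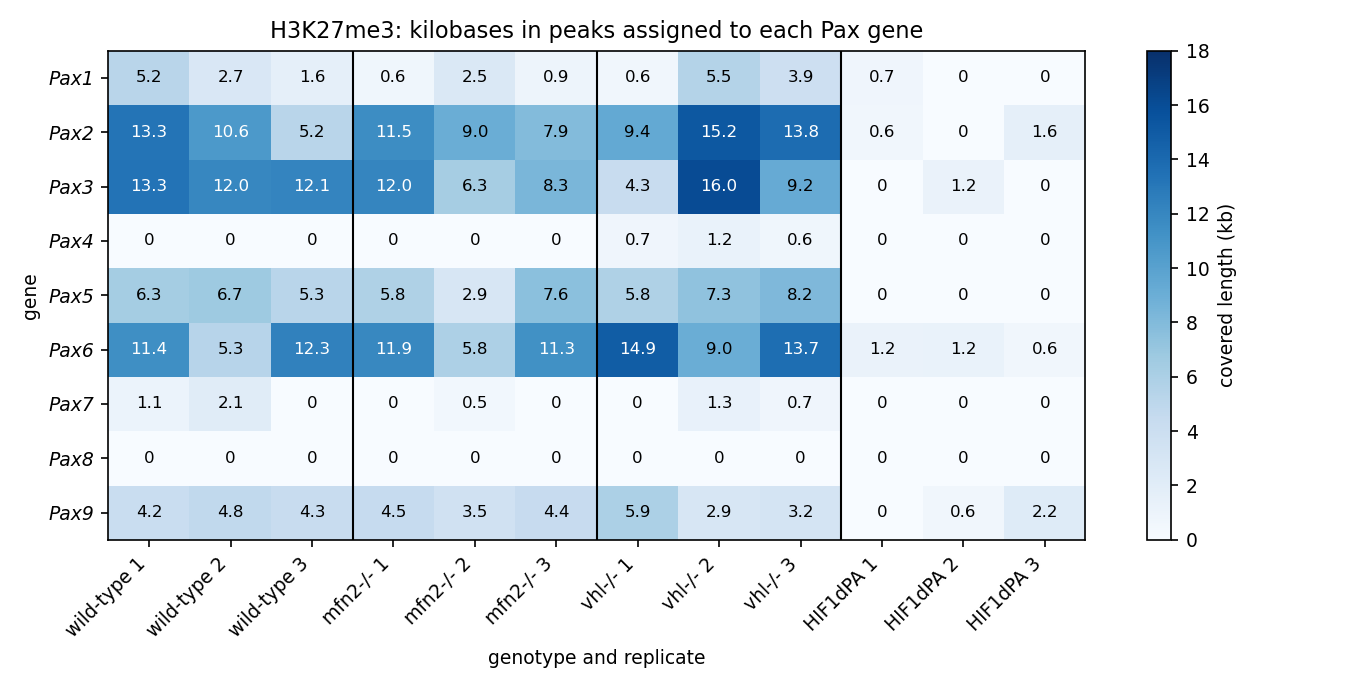
Length under assigned H3K27me3 peaks (kb, color and printed value) for each Pax gene (rows) in each of the 12 libraries (columns, grouped by genotype). Pax2, Pax3, Pax5, Pax6 and Pax9 are covered in all 9 wild-type, mfn2-/- and vhl-/- libraries, the 3 HIF1dPA columns are lower for these 5 genes, and Pax8 is empty.

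The promoter windows are shown first. RefSeq (GRCm38.p6) gives 10 promoter windows for 7 of the Pax genes, each from 250 bases before to 50 after a start site, and none for Pax3 and Pax4. Peaks of at least 1 list overlapped 4.07% of all 32851 RefSeq windows and peaks of at least 3 lists 1.22%. The 250 bases before the start are printed 5′ to 3′ on the gene's strand for 5 windows, with each CG dinucleotide in capitals. They are Pax7, whose window met no peak in any list, Pax2 at its start within the gene (9 lists), Pax6 at its downstream start (7 lists), Pax9 (6 lists) and Pax8 (1 list). The windows not printed are those of Pax1 and Pax5 (1 list each), the other 2 of Pax2 (0 and 6 lists) and the first of Pax6 (5 lists). An empty or nearly empty window was therefore not particular to Pax7. The Pax7 sequence is chr4:139832969-139833218 (minus strand), Pax2 is chr19:44755502-44755751 (plus), Pax6 is chr2:105682213-105682462 (plus), Pax9 is chr12:56695221-56695470 (plus) and Pax8 is chr2:24475600-24475849 (minus).
Pax7: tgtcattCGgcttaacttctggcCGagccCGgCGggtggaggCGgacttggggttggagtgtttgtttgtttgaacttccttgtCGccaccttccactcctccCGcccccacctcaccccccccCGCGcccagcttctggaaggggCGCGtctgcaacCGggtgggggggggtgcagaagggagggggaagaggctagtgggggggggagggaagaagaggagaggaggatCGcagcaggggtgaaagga
Pax2: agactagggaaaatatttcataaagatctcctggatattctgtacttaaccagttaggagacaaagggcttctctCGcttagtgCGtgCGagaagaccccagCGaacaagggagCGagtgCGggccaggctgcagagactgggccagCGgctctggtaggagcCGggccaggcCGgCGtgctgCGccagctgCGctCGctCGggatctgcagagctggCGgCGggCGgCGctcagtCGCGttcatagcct
Pax6: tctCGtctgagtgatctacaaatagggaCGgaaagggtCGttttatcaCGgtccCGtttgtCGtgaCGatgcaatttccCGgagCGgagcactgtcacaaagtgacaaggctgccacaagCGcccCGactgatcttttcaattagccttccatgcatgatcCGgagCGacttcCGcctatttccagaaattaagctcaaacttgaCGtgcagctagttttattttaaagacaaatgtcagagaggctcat
Pax9: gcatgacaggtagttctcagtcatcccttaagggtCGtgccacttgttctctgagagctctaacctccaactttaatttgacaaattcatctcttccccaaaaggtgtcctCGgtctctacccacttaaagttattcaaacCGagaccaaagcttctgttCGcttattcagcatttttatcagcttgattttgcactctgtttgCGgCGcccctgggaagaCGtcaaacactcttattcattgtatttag
Pax8: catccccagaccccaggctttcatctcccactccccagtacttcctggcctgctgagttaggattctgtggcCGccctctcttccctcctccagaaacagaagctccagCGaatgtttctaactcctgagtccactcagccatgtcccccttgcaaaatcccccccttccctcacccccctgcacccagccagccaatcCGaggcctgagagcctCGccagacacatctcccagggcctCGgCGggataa
The CG dinucleotides number 13 in the Pax7 stretch, 20 in Pax2, 15 in Pax6, 7 in Pax9 and 6 in Pax8. Over the whole 300 bases, the 10 Pax windows held 7 to 30 CG, with a median of 16.5 against 7 over all RefSeq windows and 15 over the 400 windows met by peaks of at least 3 lists. The Pax7 window, with 17 CG in all, was thus not poor in CG, and no list had a peak over it. The core of the hypoxia response element, ACGTG or GCGTG read on both strands, was found in 8 of the 10 Pax windows (80.0%), in 43.8% of all windows and in 52.0% of the 400 windows met by peaks of at least 3 lists. Each match contains a CG, so this count and that of CG are not separate.

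Pax3, at chromosome 1 from 78101267 to 78197136 on the minus strand (ENSMUSG00000004872), carried the highest mean assigned coverage of the family in wild-type fibers. This place depended on peaks far from the gene. Within the gene and 5000 bp either side, the wild-type libraries held 6737, 4866 and 6102 bp for Pax3. Pax6 held 12389, 7360 and 14290 bp there, so Pax3 was not the highest by that measure. In bases under assigned peaks, not scaled to gene length, the wild-type order was Pax3, Pax2, Pax6, Pax5, Pax9, Pax1 and Pax7. The ranges of Pax3, Pax2 and Pax6 overlapped. So did those of Pax2 and Pax5, Pax6 and Pax5, Pax9 and Pax1, and Pax1 and Pax7. Pax5 lay above Pax9 in every wild-type library. The covered length was 13293, 12009 and 12097 bp in the 3 wild-type libraries. It was 12028, 6320 and 8326 bp in mfn2-/-, 4349, 16039 and 9232 bp in vhl-/-, and 0, 1172 and 0 bp in HIF1dPA. The wild-type libraries lay close together, at 12466 ± 717 bp (SD, n = 3), and both the mfn2-/- range and the vhl-/- range overlapped theirs or reached past it. All 9 libraries outside HIF1dPA lay above the 3 HIF1dPA libraries, as they did for 12.3% of the 2394 genes tested.

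In Pax3 the peaks lay mostly outside the gene. Of its 101 peaks, 52 (51.5%) lay upstream of the 5′ end, from −32003 to −4005 bp, and these were found in all 9 libraries outside HIF1dPA and in none of the 3 HIF1dPA libraries. Upstream coverage was 5685 ± 895 bp for wild-type, 6733 ± 2518 bp for vhl-/- and 3972 ± 1124 bp for mfn2-/- (SD, n = 3 each). One stretch of 233 bp upstream, chr1:78215286-78215518, lay under a peak in all 9 of these libraries. The strongest Pax3 peak was of 2362 bp at chr1:78212312-78214673 in wild-type replicate 3, with a score of 259.52 and rank 31 of 3433.

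At the Pax3 start, 10 peaks in 6 libraries reached within 3000 bp of the 5′ end. The 3 wild-type libraries all had coverage there, at 1898 ± 750 bp, against 1540 ± 1404 bp in mfn2-/- and 863 ± 1495 bp in vhl-/-, where 2 and 1 libraries had a peak (SD, n = 3). The gene body held 33 peaks in 9 libraries. The only Pax3 peaks of a HIF1dPA library, 2 in replicate 2 with scores of 60.63 and 51.48, lay in intron 4 of 8 of transcript ENSMUST00000004994. Another 6 peaks beyond the 3′ end were listed in all 3 wild-type libraries and 1 mfn2-/- library. These positions were picked out after their values were seen.

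Pax7, at chromosome 4 from 139737059 to 139833530 on the minus strand (ENSMUSG00000028736), was sparsely covered. The covered length was 1064, 2104 and 0 bp in wild-type, 0, 546 and 0 bp in mfn2-/-, 0, 1322 and 732 bp in vhl-/-, and 0 in all 3 HIF1dPA libraries. Each of the 4 genotypes had at least 1 library with no Pax7 peak, so all groups overlapped. The 8 Pax7 peaks ranged in score from 51.91 to 105.11, and the highest, in wild-type replicate 1, ranked 611 of 3776.

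The Pax7 peaks fell at 4 places. A region upstream, from −19173 to −18110 bp of the 5′ end, had a peak in wild-type replicates 1 and 2 and vhl-/- replicate 3, and these shared 566 bp at chr4:139851845-139852410. Wild-type replicate 2 had the only peak at the Pax7 start, at chr4:139832081-139832859, with a score of 67.94. Intron 4 of 8 of transcript ENSMUST00000030508 had 1 peak in wild-type replicate 2 and 2 in vhl-/- replicate 2. The mfn2-/- peak, in replicate 2, lay beyond the 3′ end. No Pax7 stretch was therefore shared by more than 3 of 12 libraries, against 9 for Pax3.

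**Figure D2:**
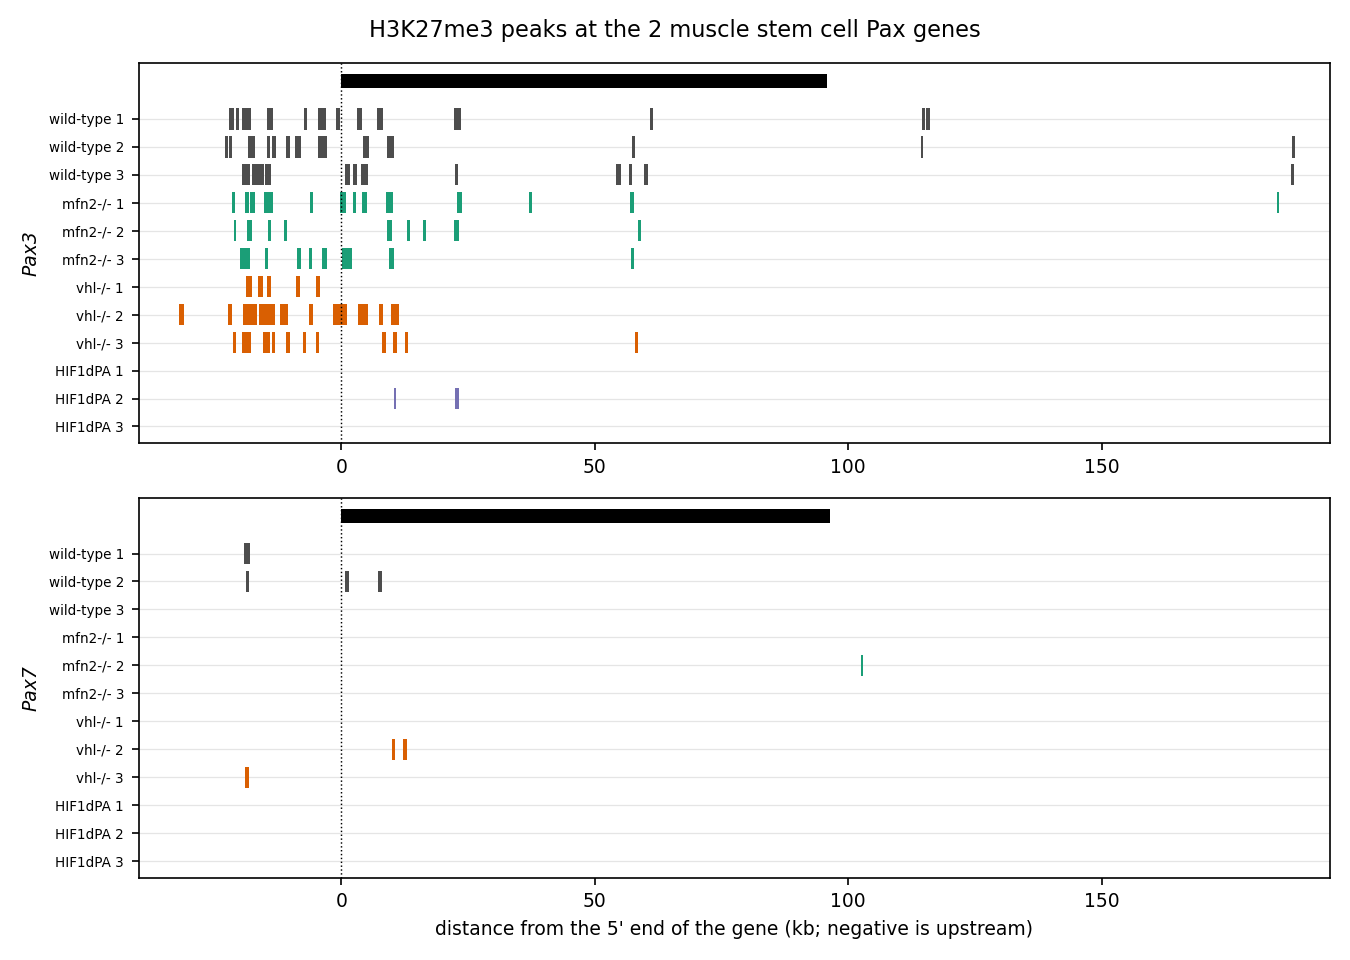
Assigned H3K27me3 peaks of Pax3 and Pax7 in each library (rows, colored by genotype) by distance from the gene's 5′ end (kb, positive into the gene); the black bar is the RefSeq gene. Pax3 peaks recur upstream of the start in the 9 wild-type, mfn2-/- and vhl-/- libraries, whereas the 8 Pax7 peaks are scattered over 5 libraries.

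Pax6, at chromosome 2 from 105668896 to 105698410 on the plus strand (ENSMUSG00000027168), was the one member listed in every library. The covered length was 11396, 5304 and 12328 bp in wild-type, 11892, 5848 and 11294 bp in mfn2-/-, 14859, 9047 and 13676 bp in vhl-/-, and 1194, 1223 and 604 bp in HIF1dPA. The HIF1dPA libraries were the lowest 3, with no overlap, and the other 3 genotypes overlapped. All 79 peaks were assigned to a promoter class, which the authors' annotation extends to 3 kb from any transcript start. By distance from the first start, 74 of them (93.7%) lay in the gene body, where Pax6 has further starts. The window of the downstream start met peaks in 7 libraries. That of the first start met peaks in 5, none of them assigned to Pax6.

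The Pax6 peaks also recurred in place. A stretch of 153 bp, chr2:105685205-105685357, was under a peak in 9 libraries, 2 of them HIF1dPA. Of all Pax6 bases covered in any library, 71.8% were covered in at least 3 libraries, against 20.2% over the peaks of all genes. The strongest, at chr2:105683727-105686266 in vhl-/- replicate 3, scored 305.28 and ranked 35 of 3636. Pax6os1, an antisense transcript over the gene, received 20 of the 99 peaks over Pax6 or within 5000 bp of it. The assay does not mark strand, so these peaks cannot be given to either gene.

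Pax4, the other member of this subgroup, at chromosome 6 from 28442334 to 28449340 on the minus strand (ENSMUSG00000029706), was listed in the vhl-/- libraries, at 715, 1241 and 635 bp, and at 0 in the other 9. A peak in each vhl-/- library and in none of the wild-type ones was found for 2.07% of 1786 genes, and in none of the other 9 for 0.71% of the 2394 genes tested. No Pax gene was listed in all libraries of another genotype alone, as were 0.418% of genes for wild-type, 7.94% for mfn2-/- and 0.0418% for HIF1dPA. Most genes behind the mfn2-/- share lie on the X chromosome, so it is not a like background for the autosomal Pax genes. The 3 peaks had percentiles of 50.5, 67.7 and 12.1 in replicates 1 to 3 and did not all lie together. Those of replicates 1 and 2 overlapped upstream of the gene, at chr6:28452446-28453160 and chr6:28452625-28453865, and that of replicate 3 lay inside it at chr6:28446700-28447334. When peaks within 5000 bp of the gene were counted whatever their assignment, 4 libraries had one, the fourth being a wild-type library whose peak was assigned to the neighboring gene Fscn3. The vhl-/- libraries were also set against the other 9, a grouping chosen after these values were seen. No gene passed (0 of 2394), and Pax4 had an adjusted exact permutation p = 0.138. Of all genes, 18.5% had an unadjusted p under 0.05, 18.3% with higher and 0.125% with lower coverage in vhl-/-. Pax4 met the limit of a peak in at least 3 lists only through these vhl-/- peaks. Its p-values, here and across the 4 genotypes, are therefore no support for a difference.

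**Figure D3:**
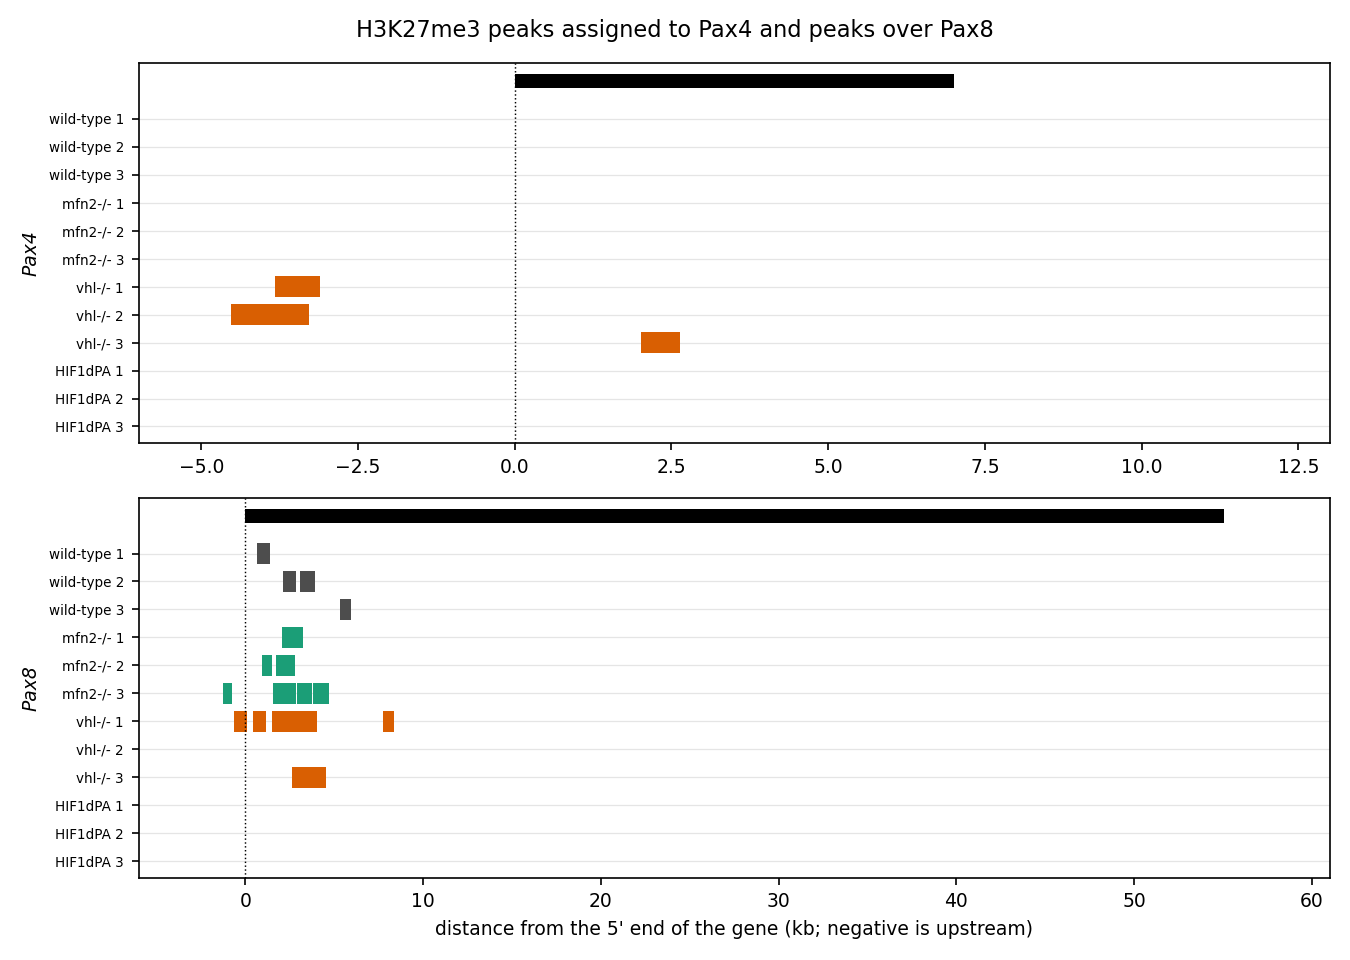
H3K27me3 peaks at Pax4 (assigned to it) and over Pax8 (all assigned to the overlapping gene Gm13415) in each library (rows, colored by genotype) by distance from the 5′ end (kb); the black bar is the RefSeq gene. The 3 Pax4 peaks are in vhl-/- libraries, and the Pax8 peaks lie at its start in 7 libraries and farther into the gene in 4, none of them HIF1dPA.

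Pax2, at chromosome 19 from 44746601 to 44838269 on the plus strand (ENSMUSG00000004231), held more peaks than any other member, 107. The covered length was 13288, 10638 and 5233 bp in wild-type, 11533, 9007 and 7883 bp in mfn2-/-, 9383, 15244 and 13831 bp in vhl-/-, and 566, 0 and 1600 bp in HIF1dPA. Wild-type replicate 3 was the lowest outside HIF1dPA, and the 3 HIF1dPA libraries lay under all 9 others. In the 5′ part of the gene, 243 bp at chr19:44755545-44755787 were under a peak in 9 libraries, including HIF1dPA replicate 3, and this stretch lies in the promoter window whose upstream bases are printed above. The windows of the other RefSeq starts met peaks in 0 and 6 libraries. The top Pax2 peak, 3190 bp wide at chr19:44755375-44758564 in mfn2-/- replicate 3, ranked 21 of 3679 with a score of 361.06, the highest score of any Pax peak.

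Pax5, at chromosome 4 from 44524748 to 44710694 on the minus strand (ENSMUSG00000014030), was listed in all 9 libraries outside HIF1dPA and in none of the 3 HIF1dPA libraries. Its covered length was 6339, 6692 and 5264 bp in wild-type, 5783, 2904 and 7573 bp in mfn2-/-, and 5811, 7336 and 8153 bp in vhl-/-. The 3 genotypes overlapped. Being listed in each wild-type and in no HIF1dPA library was found for 42.1% of the 925 genes with a peak in at least 3 of those 6 libraries, and the opposite for 0.108%. Pax5 shared the first pattern with a large part of the wild-type lists. The same comparison of all 3 libraries against none found no Pax gene between wild-type and mfn2-/-. It held for 5.89% of genes in the wild-type direction and 12.9% in the other. The genes of the mfn2-/- direction are mostly X-linked, with only 9 on autosomes, where all Pax genes lie.

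Pax8, at chromosome 2 from 24420551 to 24475599 on the minus strand, had no assigned peak but was not free of the mark. The gene and its 5000 bp flanks held 16 peaks in 8 libraries (8.66% of protein-coding genes had such peaks in at least 3), all assigned to Gm13415, a transcript that overlaps Pax8. Counted this way, the covered length was 768, 1546 and 632 bp in wild-type, 1188, 1663 and 3591 bp in mfn2-/-, 4589, 0 and 1892 bp in vhl-/-, and 0 in HIF1dPA. Within the 3 genotypes these values overlapped. Of the 16 peaks, 12 reached within 3000 bp of the Pax8 start, and the strongest, at chr2:24471584-24474079 in vhl-/- replicate 1, scored 256.35 and ranked 90 in its list.

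Pax9, at chromosome 12 from 56691693 to 56712824 on the plus strand (ENSMUSG00000001497), had even coverage in wild-type (4443 ± 286 bp) and mfn2-/- (4128 ± 518 bp; SD, n = 3 each) libraries. It covered 4216, 4764 and 4350 bp in wild-type, 4482, 3534 and 4369 bp in mfn2-/-, 5932, 2863 and 3194 bp in vhl-/-, and 0, 582 and 2199 bp in HIF1dPA. All 9 libraries outside HIF1dPA were again above the other 3, HIF1dPA replicate 3 coming nearest. Its 45 peaks lay mainly in the gene body (91.1%), with 199 bp at chr12:56702465-56702663 shared by 9 libraries. The strongest was at chr12:56698710-56701555 in wild-type replicate 2, at rank 36 of 3443 with a score of 239.03. A further 29 of the 74 peaks over Pax9 and its flanks were assigned to Gm15524 or Slc25a21.

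Pax1, at chromosome 2 from 147361930 to 147375049 on the plus strand (ENSMUSG00000037034), varied widely between replicates. The covered length was 5231, 2713 and 1592 bp in wild-type, 633, 2534 and 877 bp in mfn2-/-, 606, 5536 and 3867 bp in vhl-/-, and 742, 0 and 0 bp in HIF1dPA. HIF1dPA replicate 1 lay above mfn2-/- replicate 1 and vhl-/- replicate 1, so these genotypes overlapped, whereas all 3 wild-type libraries lay above all 3 HIF1dPA libraries. Of 27 peaks, 18 lay in the gene body. The 3 peaks beyond the 3′ end were 1 in each wild-type library and in no other library, a position singled out after its values were seen, and 2 of these overlapped. AI646519, which neighbors Pax1, received 20 of the 47 peaks over the gene and its flanks.

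**Figure D4:**
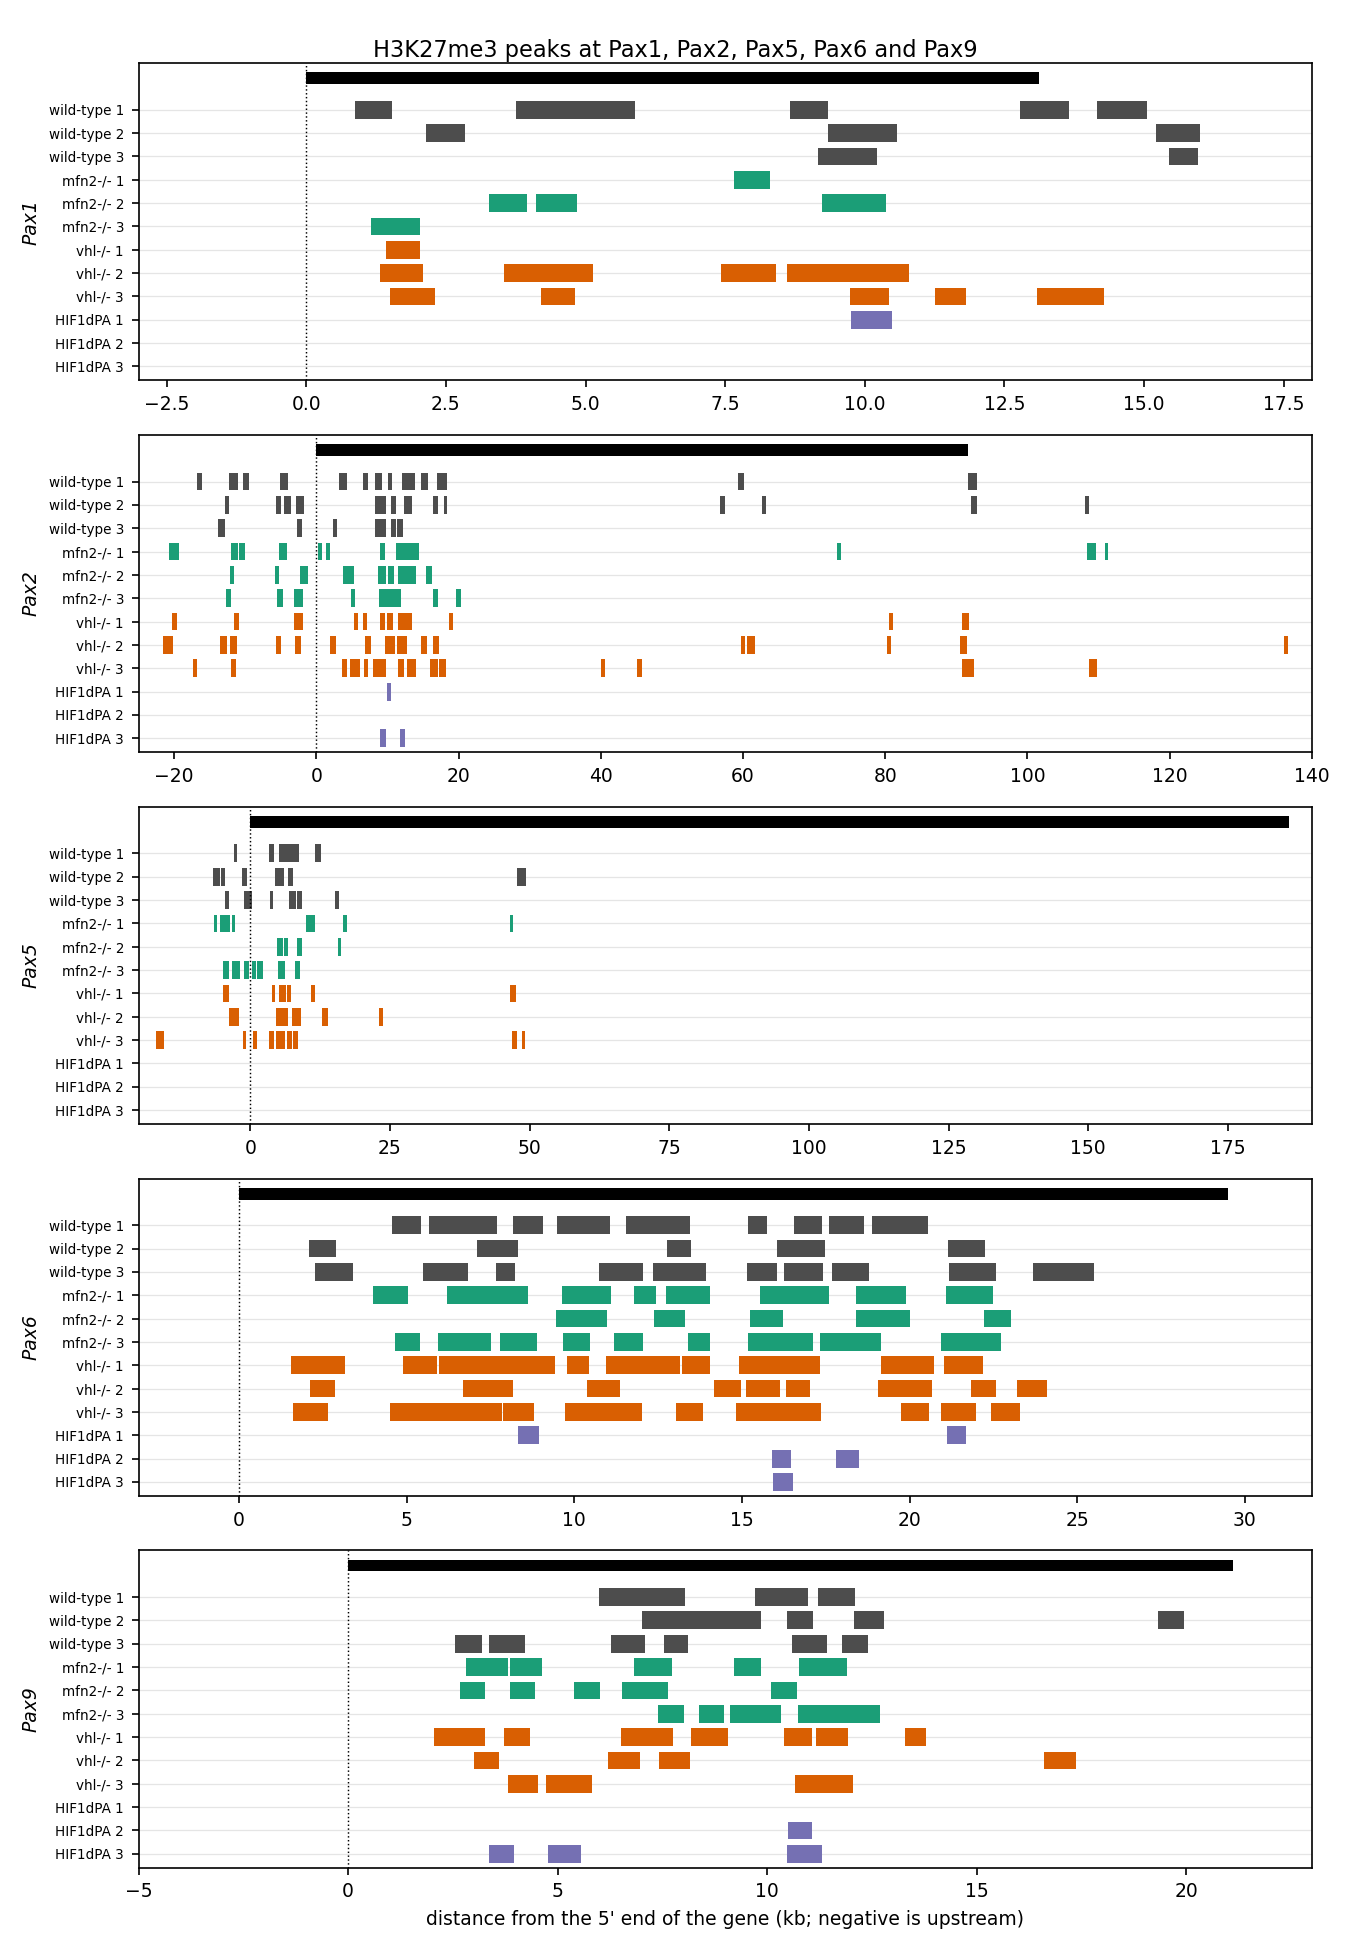
Assigned H3K27me3 peaks of Pax1, Pax2, Pax5, Pax6 and Pax9 in each library (rows, colored by genotype) by distance from the gene's 5′ end (kb, positive into the gene); the black bar is the RefSeq gene. Peaks recur at like positions in the 9 wild-type, mfn2-/- and vhl-/- libraries, and few are present in the 3 HIF1dPA rows, none of them at Pax5.

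The covered lengths were compared across genotypes by an exact permutation test of the libraries, run on all 2394 genes with a peak in at least 3 of the 12 lists, with Benjamini-Hochberg adjustment over those genes. Across the 4 genotypes, 44 genes (1.84%) passed an adjusted p of 0.05 and none of them was a Pax gene. The count of 44 rested on single libraries: it was 0 without mfn2-/- replicate 1 or any 1 HIF1dPA library, 9 without vhl-/- replicate 2 and 23 without mfn2-/- replicate 2, and it was 71, 72 and 104 without wild-type replicate 1, wild-type replicate 2 and vhl-/- replicate 3. Before adjustment, 6 of the 8 Pax genes had p under 0.05, as had 33.2% of all genes. Pax4 was among these 6, although it had entered the test only through its vhl-/- peaks. Pax2 had p = 0.00734 and adjusted p = 0.0734 in this exact test, and Pax5 had p = 0.0089 and the same adjusted p. Pax3, Pax4, Pax6 and Pax9 had adjusted p of 0.0734 to 0.0737, Pax1 of 0.278 and Pax7 of 0.324.

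Wild-type libraries were then set against the 9 mutant libraries, which answers the study's question most directly. The mean coverage in wild-type exceeded that in mutants by 6081 bp for Pax3, by 2048 bp for Pax2, by 1939 bp for Pax6, by 1925 bp for Pax5, by 1535 bp for Pax1, by 1426 bp for Pax9 and by 767 bp for Pax7, and for Pax4 the difference was −288 bp. For Pax2, Pax5 and Pax6 the excess rested on the HIF1dPA libraries. The mean of the 6 mfn2-/- and vhl-/- libraries was 11147 bp for Pax2 against 9720 bp in wild-type, 6260 against 6098 bp for Pax5 and 11103 against 9676 bp for Pax6. For Pax3 it was 9382 against 12466 bp, in the direction of the whole comparison. The same direction was kept by Pax1 (2342 against 3179 bp), Pax7 (433 against 1056 bp) and Pax9 (4062 against 4443 bp). None of these passed, with adjusted exact permutation p of 0.586 for Pax3, 0.567 for Pax7 and 0.88 to 0.933 for the others, Pax4 included. Of all genes, 0 passed (0.0%) and 219 (9.15%) had an unadjusted p under 0.05, against 0 of the 8 Pax genes. With 220 arrangements the smallest p is 0.00455, so a call after adjustment would need many genes at that p. Between any 2 genotypes, 3 libraries against 3 cannot give a p below 0.1.

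The HIF1dPA libraries and the other 9 were compared afterwards, once the list lengths had been seen. The mean coverage of HIF1dPA minus that of the other 9 was −10020 bp for Pax3, −9949 bp for Pax2, −9620 bp for Pax6, −6206 bp for Pax5 and −3262 bp for Pax9. These 5 genes had the smallest possible exact permutation p = 0.00455 and adjusted p = 0.0579. Across all genes, 0 passed and 18.3% had an unadjusted p under 0.05, 18.2% with lower and 0.167% with higher coverage in HIF1dPA. Of the genes tested, 70.6% had no peak in any HIF1dPA list. Without the HIF1dPA libraries, the adjusted p of the Pax genes across the other 3 genotypes was 0.219 to 0.98 in the exact permutation test. Of 2294 genes, X-linked ones included, 0 passed and 17.6% had an unadjusted p under 0.05. With 280 distinct groupings the smallest p is 0.00357, so a call after adjustment would need many genes at that p. That 0 passed therefore does not show that the 3 genotypes are alike.

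The family was also counted within equal lists. The number of Pax genes with an assigned peak was 3.0 ± 0.0 in each HIF1dPA list, 7.67 ± 0.577 for vhl-/-, 6.33 ± 0.577 for mfn2-/- and 6.67 ± 0.577 for wild-type (SD, n = 3). When each list was reduced to its 482 strongest peaks, the means became 3.0, 3.67, 4.67 and 5.33 in that order. Reduction therefore removed most of the distance in gene number between vhl-/- and HIF1dPA, and the order of wild-type and vhl-/- turned. It did not do so for covered length, which was 13900 ± 1210 bp in the reduced vhl-/- lists and 3290 ± 989 bp in those of HIF1dPA. The reduced lists also end at unlike scores, 118.97 to 133.23 for vhl-/- and 50.03 to 50.35 for HIF1dPA. The part of list length in these distances was not tested. Pax2 and Pax6 were still present in 11 of the 12 reduced lists, Pax3 and Pax9 in 9, Pax5 in 7 and Pax1 in 3, and Pax4 and Pax7 in 0.

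As a share of all bases under peaks, the Pax genes took 1.45 ± 0.105% of wild-type lists, 1.35 ± 0.191% of mfn2-/- lists, 1.36 ± 0.225% of vhl-/- lists and 0.956 ± 0.276% of HIF1dPA lists (SD, n = 3). Of the autosomal bases alone the mfn2-/- share was 1.8 ± 0.235%. In the 482 strongest peaks the share was 1.94 ± 0.436% for wild-type, 2.32 ± 0.673% for mfn2-/-, now the highest mean, 1.44 ± 0.112% for vhl-/- and 0.981 ± 0.299% for HIF1dPA.

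**Figure D5:**
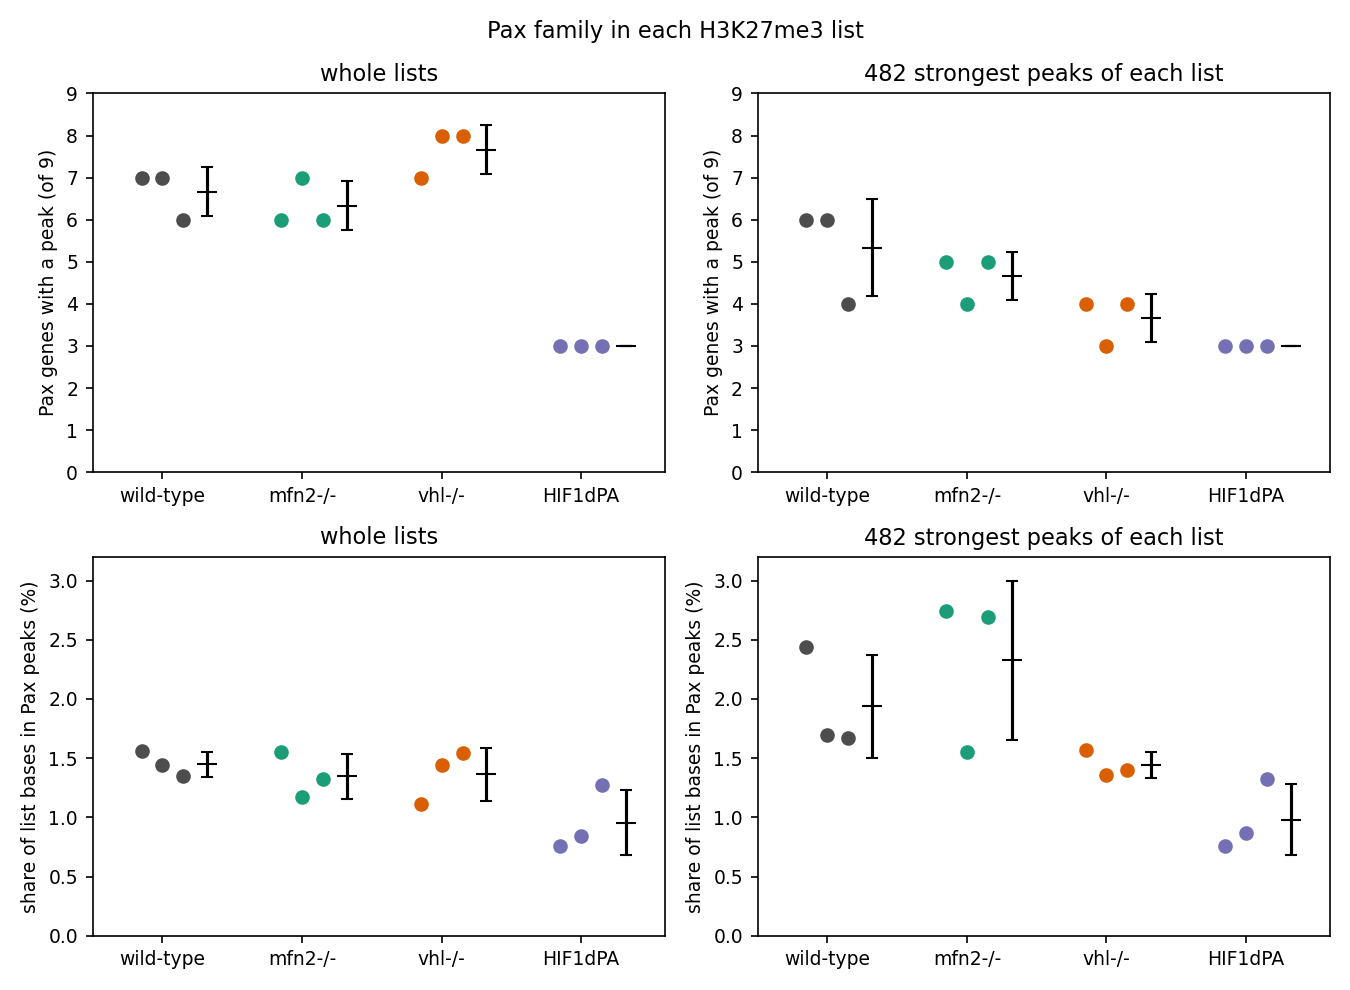
Number of Pax genes with an assigned H3K27me3 peak (top row) and Pax share of all bases under peaks in percent (bottom row), for whole lists (left) and for the 482 strongest peaks of each list (right); points are libraries and bars are the mean ± SD (n = 3). The wild-type mean of 6.67 genes falls to 5.33 in the reduced lists and the vhl-/- mean of 7.67 falls to 3.67, while HIF1dPA stays at 3.0.

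Single Pax peaks were somewhat wider and stronger than the lists as a whole, given here as a description. Their median width was 843 bp against 735 bp for all H3K27me3 peaks, and their median percentile within a list was 63.1 against 50.0. A score of at least 100 was reached by 25.3% of Pax peaks and 16.7% of all peaks, and a promoter class by 51.8% against 47.2%. The members differed widely in this last value, from 10.9% of peaks for Pax3 and 12.5% for Pax7 to 43.9% for Pax2, 46.7% for Pax9, 70.4% for Pax1, 73.7% for Pax5 and all 79 peaks for Pax6.

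The genes whose covered length followed Pax3 most closely over the 12 libraries were Sall4, a zinc finger factor of pluripotent cells, Fezf1, a zinc finger factor of the forebrain, and Gm13261, each with Pearson r = 0.94 among 2394 genes. Those nearest to Pax7 were Gm25054 (r = 0.93), Entpd1 and Hfm1 (both r = 0.91). All of these had 0 bp in the 3 HIF1dPA libraries, where Pax7 had 0 bp and Pax3 had 1172 bp in replicate 2 alone. The part of list length in these values was not tested.

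Among 29 genes of the Pax network in muscle and its targets, 16 had an assigned peak and 10 had one in at least 3 lists. One passed the test across the 4 genotypes, in which 1.84% of all genes passed. This was Tcf21, a basic helix-loop-helix factor of mesenchyme, whose coverage of 6923 ± 2747 bp in wild-type stood beside 11569 ± 603 bp in vhl-/-, 5516 ± 1613 bp in mfn2-/- and 190 ± 329 bp in HIF1dPA (SD, n = 3 each), with an adjusted exact permutation p = 0.0444. This call, like those of Lhx2 and Lhx9 below, was lost without mfn2-/- replicate 1 or any 1 HIF1dPA library, when 0 genes passed. Six2, a homeobox factor of kidney progenitors, was listed in 0 wild-type, 3 mfn2-/-, 3 vhl-/- and 1 HIF1dPA libraries, at 1517 ± 729 bp in mfn2-/- and 3384 ± 1169 bp in vhl-/-, with adjusted exact p = 0.0535. Eya1 and Eya2, transcriptional coactivators that work with Pax proteins, had peaks in 8 and 9 lists with adjusted p of 0.193 and 0.306 in this permutation test. Lbx1, which acts in migrating limb muscle precursors, had peaks in 6 lists. Of the 29 genes, 8 had an assigned H3K9me3 peak, in 1 to 3 lists each, against 0 of the 9 Pax genes. Dach2 and Met, among these 8, had no H3K27me3 peak. By position, a different measure, 9.38% of protein-coding genes had such a peak in at least 1 list. At so low a share, 0 of 9 genes does not set the Pax family apart. Dach1, a corepressor in the same network, and Foxc1, a forkhead factor of the paraxial mesoderm, had peaks in 8 and 7 lists with adjusted p of 0.14 and 0.417 in the same permutation test. Myod1, Myog and Myf6, the myogenic factors that act after Pax3 and Pax7, had no peak in any list.

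Other developmental gene families gave the setting. Of 39 Hox genes, 21 had a peak and 0 passed the test, with 14 to 15 of them listed per wild-type library, 15 to 18 in mfn2-/-, 15 to 16 in vhl-/- and 3 to 4 in HIF1dPA. All 12 LIM homeobox genes had a peak and 2 passed, Lhx2 with adjusted p = 0.0444 and Lhx9 with adjusted p = 0.0389 in the permutation test. Calcr, a receptor of quiescent muscle stem cells, had peaks in 8 lists, against 5 for Pax7, with adjusted exact p = 0.068, while 6 of the 10 muscle stem cell genes had a peak in 0 lists. Pdgfra, the marker of fibro-adipogenic progenitors, had peaks in 9 lists, with adjusted exact p = 0.125, and the other 4 genes of that list had none.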

How the data were processed

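Chromatin from regenerating myofibers was fixed in 1% formaldehyde, sonicated to about 500 bp and immunoprecipitated for H3K27me3 or H3K9me3, with 12 libraries per mark (4 genotypes, 3 replicates). The submitters' processing notes name BWA 0.7.5, MACS, deepTools 3.5.0 and mm10. The authors deposited 1 peak list per library, called separately, in which each score is 10 times the −log10 of the caller's p-value (at most 1e-05) and each peak has the authors' assigned gene and annotation class. The MACS version and settings are not given in the sources used here. The input library was not used here, and the lists hold no read counts.

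Peaks were matched to Pax genes by the symbol in the lists. Gene spans (by symbol: 5608 of 6091 list symbols matched) and promoter windows came from RefSeq. The strand came from the promoter table, or for Pax3 and Pax4 from the gene end nearer to the promoter-class peaks. Of the peaks annotated within 1 kb of a promoter, 57.1% lay within 1 kb of a RefSeq start, against 4.64% after a shift of 100000 bp.

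Covered length per gene and library was tested by exact two-sided permutation over libraries (Python 3.11.15, numpy 2.4.6, pandas 2.3.3, figures with matplotlib 3.10.9), adjusted by the Benjamini-Hochberg method over genes with a peak in at least 3 of 12 H3K27me3 lists. The procedure was tested on simulated data. Group labels came from the sample annotations. Genes named besides the 9 members were network genes with a peak in at least 6 lists and cell type genes with a peak in at least 3. The 3 genes most like Pax3 and the 3 most like Pax7 were named too. Of the Hox and LIM homeobox genes, only Lhx2 and Lhx9 were named, the 2 that passed the test. Myogenic factors without a peak and single Pax positions were named in addition after their values were seen. Some network genes are not reported here by name. The members, lists and tests were chosen with earlier results of these data known. Alternatives were a score of at least 100, the same number of strongest peaks per list, promoter peaks only, the widest peak, the best percentile, presence alone, joined peaks, gene spans, a replicate block and leaving out each library, and, chosen after seeing the data, autosomes only, promoter windows and other groupings of the libraries.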

Additional observations from a re-analysis of the deposited data

How the results depend on the processing

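No Pax gene reached an adjusted p of 0.05 under any alternative that tested genes. Gene spans, promoter windows and joined peaks entered no gene test. The lowest adjusted exact permutation p was 0.0579 across genotypes and 0.399 for wild-type against mutants. The 0.0579 came from HIF1dPA against the other 9, at the smallest possible p of 0.00455. A lower value there would have needed more genes at that p, so it does not show likeness. One direction turned: the Pax2 difference of wild-type minus mutants, 2048 bp, was -24.9 bp when every list was reduced to an equal number of its strongest peaks (adjusted exact permutation p = 1.0). The 44 genes called across the 4 genotypes became 19 with promoter peaks only, 1 with equal numbers of strongest peaks, and 0 with the widest peak, best percentile, presence alone, genes in at least 1 list (6092 tested), without the 3 HIF1dPA libraries, or with HIF1dPA or vhl-/- set against the other 9; leaving out each library gave 0 to 104. With the replicate number as a block the count was 0, where 576 arrangements allow no p below 0.00174 (455 genes at an unadjusted p under 0.05). The labels do not say that the numbers pair libraries, and same-numbered libraries did not deviate together (mean r 0.004, from -0.041 to 0.068, over 18 pairs). Wild-type against mutants called 0 genes wherever it was tested. Its smallest p is 0.00455 with all libraries, so this does not show that wild-type and mutants are alike.

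Against mfn2-/-, 92 genes had peaks throughout the 3 wild-type libraries and in none of the mutant ones, and 202 the reverse. These numbers were 26 and 37 against vhl-/-, and 389 and 1 against HIF1dPA. A score of at least 100 gave 10 and 11, 3 and 13, and 138 and 0. The strongest peaks gave 4 and 13, 5 and 6, and 29 and 8. Promoter peaks gave 59 and 30 for mfn2-/-, 16 wild-type genes for vhl-/- and 0 in the HIF1dPA direction. On autosomes, 9 genes had peaks throughout the mfn2-/- libraries and in none of the wild-type ones. With 1 library left out, which asks for 2 libraries in place of 3, the ranges were 128 to 218 and 207 to 279, 39 to 89 and 60 to 108, and 456 to 639 and 1 to 6.

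The number of Pax genes per library (wild-type, mfn2-/-, vhl-/-, HIF1dPA) was 5.67, 4.33, 5.0 and 0.0 at a score of at least 100. It was 5.33, 4.67 and 3.67 for the first 3 with the strongest peaks, 5.33, 5.67 and 2.0 for the mutants with promoter peaks, 7.67 in wild-type, 7.0 in mfn2-/- and 3.67 in HIF1dPA with gene spans, and 3.0, 2.0, 3.33 and 1.0 with promoter windows. Pax coverage, 46638, 39122, 51201 and 3294 bp in whole lists, was 19892, 16432, 20361 and 0.0 bp at a score of at least 100, 15960, 17403 and 13861 bp for the first 3 with the strongest peaks, and 26367, 22611, 30415 and 2182 bp with promoter peaks. The Pax share was 2.04% in wild-type, 2.17% in mfn2-/- and 0.0% in HIF1dPA at a score of at least 100, 1.94% in wild-type and 2.32% in mfn2-/- with the strongest peaks, 1.7% in mfn2-/- and 1.54% in HIF1dPA with promoter peaks, and 1.8% in mfn2-/- on autosomes. Leaving out 1 library gave 6.5 to 7.0, 6.0 to 6.5, 7.5 to 8.0 and 3.0 genes, 42544 to 49526, 35508 to 43336, 47488 to 55974 and 2740 to 3690 bp, and 1.4 to 1.5, 1.25 to 1.43, 1.27 to 1.49 and 0.799 to 1.06%. The cause of these movements was not tested. At a score of at least 100, the HIF1dPA lists together held 63 peaks. The wild-type, mfn2-/- and vhl-/- lists held 1792, 1430 and 2418. The HIF1dPA values of 0.0 at that score therefore say little about the Pax genes. Joining peaks within 1000 bp was applied only to the Pax coverage and share, and no gene was tested under it. No Pax gene had an H3K9me3 peak under any setting. Read depth is unknown, so a weak mark under the score limit cannot be told from none.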
